A study of Mus musculus with 31 samples.

Results

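The genes described here are 10 genes that link tumour necrosis factor (TNF) to cell death and cell survival: Casp8, Ripk1, Ripk3, Mlkl, Cflar, Birc2, Birc3, Traf1, Traf2 and Fas. They were chosen by gene symbol, and all 10 were found among the 55401 genes of the RNA-seq files. Expression was measured in 12 RNA-seq libraries of astrocytes isolated by sorting; astrocytes are brain glia that turn reactive during inflammation. Per the labels, the donors were female C57Bl/6 mice aged 10 weeks, and the protocol text gives an age of 10 to 12 weeks. They received IL-1β at 100 ng/mL together with TNF-α at 50 ng/mL, or PBS alone, by stereotactic injection into both lateral ventricles of the brain. The 1X groups (1X PBS and 1X cytokine, 3 libraries each) were injected on day 7 only. The 2X groups (2X PBS and 2X cytokine, 3 libraries each) had been injected before and received the same agent again on day 7. Astrocytes were sorted 18 to 24 hours after the last injection, so all 4 groups share an injection on day 7 and the sort. The 2X groups had 2 injections and the 1X groups 1, and the cytokine and PBS contrasts described below differ by that additional operation as well. No source used here names the sort markers, a short description label names TNF only, and the labels do not state whether a library is 1 animal.

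When TNF binds its receptor TNFR1, the adaptor TRAF2 brings the ubiquitin ligases cIAP1 (Birc2) and cIAP2 (Birc3) to the kinase RIPK1, and the modified RIPK1 drives NF-κB, which in turn induces survival genes such as Birc3, Traf1 and Cflar. Where that step fails, RIPK1 can join FADD and caspase-8, and cells die by apoptosis, or, with caspase-8 inactive, RIPK1 and RIPK3 activate MLKL and cells die by necroptosis. Fas is a death receptor that engages FADD and caspase-8 directly. Astrocytes carry TNF receptors and are known to respond to TNF with NF-κB target genes.

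The libraries did not follow their labels in full. On the first principal component, which held 46% of the variance, 1X PBS replicate 1 scored -41.2 against 67.5 and 67.0 in replicates 2 and 3 of the same label. 1X cytokine replicate 1 scored 39.8 against -29.3 and -38.8. Each of these libraries thus lay with the other 1X label on this component, and an exchange of these labels cannot be told apart from other differences between the libraries with the values used here. Both libraries are called the displaced libraries below, and results that use them are given with and without them. They were picked by the same expression values that are tested, so p-values of fits without them are descriptive only. Total estimated counts ran from 1878418 to 5521679 per library, and 3 counts, the smallest number read as signal here, correspond to between 0.543 and 1.60 CPM. CPM is the estimated count relative to the library total, after TMM scaling between libraries. The 12 astrocyte markers summed to 31080, 8962 and 8575 CPM in replicates 1 to 3 of 1X PBS. Their sums were 12238, 23134 and 26216 CPM in 1X cytokine, 21484 to 24232 in 2X PBS and 23672 to 27790 in 2X cytokine. RNA of the labelled cell type was thus present in every library, at its lowest in replicates 2 and 3 of 1X PBS. Markers of other cells were present too: the 10 monocyte and macrophage markers summed to 1542 and 1388 CPM in replicates 2 and 3 of 1X PBS, to between 383 and 397 CPM in 2X PBS, and to between 12.1 and 86.0 CPM in 2X cytokine. Of these 10 markers, 0 to 4 were at 0 in a library. The 5 choroid plexus markers (Ttr, Folr1, Kcnj13, Clic6 and Kl), none of them at 0 in any library, summed to between 8510 and 26887 CPM in 1X PBS, 12089 and 28475 with 1X cytokine, 13550 and 15695 in 2X PBS, and 3806 and 14310 in 2X cytokine. Choroid plexus markers summed above the astrocyte markers in replicates 2 and 3 of 1X PBS (26394 and 26887 CPM) and in 1X cytokine replicate 1 (28475 CPM). Erythrocyte markers did so in replicates 2 and 3 of 1X PBS (15696 and 64766 CPM). In 1X PBS replicate 3, mural cell and fibroblast markers (9676 CPM) also summed above the astrocyte markers. Sums of different lists do not give shares of cells. The part of these other cells in the results was not tested.

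The start-site windows of Traf1, Birc3 and Fas are shown because these 3 genes passed the threshold between 2X cytokine and 2X PBS when those 6 libraries were fitted alone. In that fit 7.74% of all genes passed it. Each sequence gives the 250 bases before the RefSeq start site on GRCm38.p6, written along the gene's strand, with the last 50 bases in capitals. The Traf1 window is chr2:34961773-34962022 on the minus strand, the Birc3 window is chr9:7873171-7873420 on the minus strand and the Fas window is chr19:34290409-34290658 on the plus strand.
Traf1: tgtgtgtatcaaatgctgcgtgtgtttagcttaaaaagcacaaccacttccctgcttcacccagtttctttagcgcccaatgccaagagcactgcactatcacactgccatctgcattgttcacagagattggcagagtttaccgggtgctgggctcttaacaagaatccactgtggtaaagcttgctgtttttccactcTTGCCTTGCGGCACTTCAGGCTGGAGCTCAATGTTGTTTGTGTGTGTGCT
Birc3: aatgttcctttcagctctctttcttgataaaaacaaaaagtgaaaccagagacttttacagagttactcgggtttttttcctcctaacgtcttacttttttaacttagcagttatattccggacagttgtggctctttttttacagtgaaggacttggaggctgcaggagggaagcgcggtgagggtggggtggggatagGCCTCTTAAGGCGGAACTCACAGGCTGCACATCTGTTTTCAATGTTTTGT
Fas: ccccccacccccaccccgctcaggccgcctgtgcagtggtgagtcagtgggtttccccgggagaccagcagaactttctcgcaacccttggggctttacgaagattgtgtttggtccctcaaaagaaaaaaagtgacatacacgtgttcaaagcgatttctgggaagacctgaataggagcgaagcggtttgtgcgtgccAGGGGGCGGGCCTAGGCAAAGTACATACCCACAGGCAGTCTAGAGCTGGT
Windows of 300 bases, with 50 bases after the start site added, were available for all 10 genes (12 windows). The NF-κB decamer consensus, searched on both strands, was found in 0 of the 12 windows, against 8.46% of all 32851 windows in the table. This count describes letters in short windows only. GC content was 43.0% in the Birc3 window, 48.7% in that of Traf1 and 59.0% in that of Fas, beside a median of 52.7% over all windows.

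Levels were compared between genes per transcript length, as TPM summed over all transcripts of a gene, short non-coding ones included. Over the 12 libraries, Cflar had the highest mean at 40.4 TPM (range 30.3 to 53.8), followed by Traf1 at 40.2 TPM (19.8 to 62.3). Birc3 (26.8 TPM), Fas (26.7 TPM), Birc2 (24.7 TPM) and Traf2 (23.8 TPM) came next, and their ranges overlapped one another. Ripk1 at 7.93 TPM (3.68 to 10.6) and Casp8 at 7.30 TPM (2.89 to 13.2) lay lower, and every Ripk1 value was below every Traf2 value. Ripk3 (3.90 TPM) and Mlkl (1.57 TPM), the effectors of necroptosis, had the lowest means, and each was at 0 in 1 library. With protein-coding transcripts alone the order of the means changed: Traf1 (23.5 TPM), Birc2 (22.2 TPM) and Traf2 (21.9 TPM) led, followed by Fas (18.0 TPM), Birc3 (12.3 TPM) and Cflar (11.04 TPM). Casp8 kept 7.30 TPM, Ripk1 had 4.21 TPM, Ripk3 2.15 TPM and Mlkl 1.51 TPM. On that scale Cflar ranged from 6.74 to 16.9 TPM, Traf1 from 12.6 to 33.2 TPM and Birc2 from 18.2 to 27.6 TPM.

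The design gives 4 contrasts and 1 difference between contrasts. The 1X contrast sets 1X cytokine against 1X PBS, the 2X contrast sets 2X cytokine against 2X PBS, the cytokine contrast sets 2X cytokine against 1X cytokine, and the PBS contrast sets 2X PBS against 1X PBS. The difference is the 2X contrast minus the 1X contrast. In the edgeR quasi-likelihood fit of all 12 libraries, 8 of the 10 genes passed the filter on low counts, and 0 of the 8 reached a Benjamini-Hochberg adjusted p of 0.05 in any comparison. The share of all 14490 tested genes past the same threshold was 0% in the 1X contrast, 0.0345% in the 2X contrast, 0.0276% in the cytokine contrast, 0% in the PBS contrast and 0% for the difference. At an unadjusted p under 0.05, edgeR gave 3 genes in the 1X contrast (Birc3, Cflar, Traf1), 2 in the 2X contrast (Fas, Traf1), 2 in the cytokine contrast (Casp8, Traf1), 3 in the PBS contrast (Birc2, Cflar, Traf1) and 1 for the difference (Traf1). Over all 14490 genes the same threshold gave 5.40%, 9.68%, 7.00%, 6.31% and 5.20% in that order. DESeq2 on the same libraries called 0 of the 8 in each of the 4 contrasts, beside 0.0138%, 0.788%, 0.0553% and 0.117% of all genes. The spread shared by this fit, a biological coefficient of variation of 0.237, includes the displaced libraries. It was 0.114 in the 6 libraries of the 2X groups and 0.123 in the 10 libraries left without the displaced ones.

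**Figure D1:**
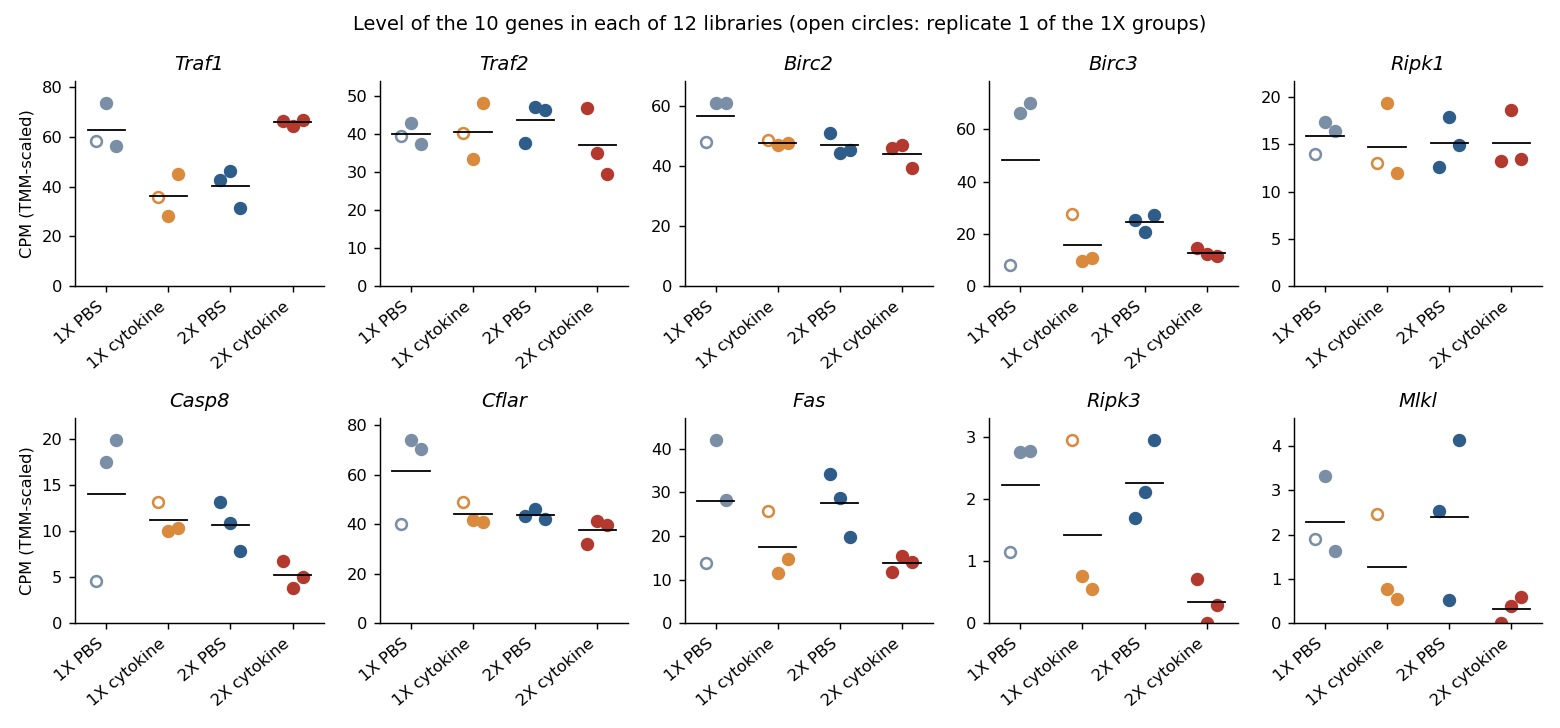
Level of each gene in CPM (vertical axis, from 0) in the 12 libraries by group, with a bar at the mean of 3 and open circles for the displaced libraries. Traf1 is high in 1X PBS and 2X cytokine, whereas Birc3 ranges from 8.19 to 70.0 CPM inside 1X PBS alone.

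Traf1 encodes an adaptor for receptors of the TNF receptor family that is itself induced by NF-κB and binds TRAF2 and the cIAPs (chr2:34941750-34961772, minus strand). Its CPM was 58.2, 73.4 and 56.4 in replicates 1 to 3 of 1X PBS, 35.9, 28.0 and 45.1 in 1X cytokine, 42.8, 46.1 and 31.4 in 2X PBS, and 66.4, 64.1 and 66.6 in 2X cytokine. The groups did not overlap in any of the 4 comparisons: 1X cytokine lay below 1X PBS, 2X cytokine lay above 2X PBS, 2X cytokine lay above 1X cytokine, and 2X PBS lay below 1X PBS. With the labels as given, each displaced library lay between the other 2 of its group in CPM. With these 2 labels exchanged, the 1X groups would overlap, at 35.9, 73.4 and 56.4 CPM in 1X PBS and 58.2, 28.0 and 45.1 CPM in 1X cytokine. 1X PBS would then also overlap with 2X PBS. Over all tested genes, the share without overlap in CPM in either direction was 6.22%, 25.3%, 12.5% and 11.5% in these comparisons in that order. Among the 8 tested genes it was 1, 5, 3 and 1. Of these, Casp8, Cflar and Birc3 in the 2X contrast and Birc2 in the cytokine contrast overlapped in TPM. The share over all genes was not counted in TPM.

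The fitted log2 fold change of Traf1 was -0.80 ± 0.19 (SE) in the 1X contrast (edgeR adjusted p 0.866, fit of 12) and 0.71 ± 0.19 in the 2X contrast (edgeR adjusted p 0.306). In the edgeR fit of the 6 2X libraries alone it rose by 0.71 ± 0.14 (adjusted p 0.00763), and over 20 alternatives the adjusted p of the 2X contrast ran from 0.00763 to 0.772. The difference between both responses was 1.51 ± 0.27, at an adjusted p of 0.204 by edgeR on 12 libraries and of 0.00218 by DESeq2. Over 19 alternatives this difference stayed between 1.30 and 1.66, and its adjusted p ran from 0.00218 to 0.912. DESeq2 called 0.0898% of all genes for that difference, and Traf1 was the only 1 of the 8 among them. Without the displaced libraries edgeR called it as well, at 1.55 ± 0.28 with an adjusted p of 0.00353.

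Traf2 encodes the adaptor that carries the cIAPs to TNFR1 (chr2:25517982-25546940, minus strand). Its CPM lay between 37.5 and 42.8 in 1X PBS, between 33.4 and 48.2 in 1X cytokine, between 37.8 and 47.0 in 2X PBS and between 29.6 and 46.9 in 2X cytokine. The groups overlapped in every comparison. Its log2 fold changes in the edgeR fit of 12 ran from -0.24 to 0.13.

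Birc2 and Birc3 encode the 2 cIAP ubiquitin ligases and lie 11634 bases apart on chromosome 9 (Birc2 chr9:7818227-7837064, Birc3 chr9:7848699-7873186, both on the minus strand). Birc2 varied least of the 8 tested genes, with 47.9, 60.8 and 60.9 CPM in 1X PBS, 48.4, 47.0 and 47.7 with 1X cytokine, 50.8, 44.4 and 45.3 in 2X PBS, and 46.1, 47.0 and 39.2 in 2X cytokine. Birc3 had 8.19, 66.0 and 70.0 CPM in 1X PBS, 27.5, 9.56 and 10.9 with 1X cytokine, 25.2, 20.95 and 27.3 in 2X PBS, and 14.6, 12.5 and 11.8 in 2X cytokine. Birc3 thus split 1X PBS into 1 low and 2 high libraries, and its highest library was 8.55 times its lowest, against 1.55 times for Birc2. All 3 libraries of 2X cytokine lay below all 3 of 2X PBS in CPM for Birc3 and not for Birc2. In TPM the 2X groups overlapped for Birc3 too, with 22.8 to 28.3 TPM in 2X PBS and 9.73 to 24.8 TPM in 2X cytokine.

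In the edgeR fit of the 6 libraries of the 2X groups, where 7.74% of all genes were called, Birc3 fell by 0.90 ± 0.18 on the log2 scale (adjusted p 0.00895) and Birc2 differed by -0.07 ± 0.12 (adjusted p 0.815). The Birc3 value in the 1X contrast depended on the displaced libraries. It was -1.54 ± 0.59 with them (edgeR adjusted p 0.866) and -2.71 ± 0.20 without them (edgeR adjusted p 5.54e-07). Birc3 itself split along with the displaced libraries, so the p-values without them are descriptive only. The difference (2X contrast minus 1X contrast) was 1.82 ± 0.26 without the displaced libraries (edgeR adjusted p 0.000781), which is a smaller fall in the 2X contrast, and 0.62 ± 0.85 with them (edgeR adjusted p 0.997). Over 20 alternatives the adjusted p of Birc3 ran from 5.54e-07 to 1 in the 1X contrast and from 0.00384 to 0.91 in the 2X contrast.

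Ripk1 encodes the kinase at the fork between survival and death signalling (chr13:34002363-34037147, plus strand). Its CPM lay between 11.9 and 19.4 in all 12 libraries, and the groups overlapped in every comparison. No fitted change exceeded 0.12 in size in the edgeR fit of 12, and each was smaller than its SE.

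Casp8, the initiator caspase of this pathway, and Cflar, its catalytically inactive relative that restrains it, are neighbours on chromosome 1 with 36489 bases between them (Cflar chr1:58711508-58758884, Casp8 chr1:58795374-58847503, both on the plus strand). Casp8 had 4.62, 17.5 and 19.9 CPM in 1X PBS, 13.2, 10.0 and 10.3 with 1X cytokine, 13.1, 10.8 and 7.84 in 2X PBS, and 6.78, 3.80 and 4.97 in 2X cytokine. Cflar had 40.2, 74.2 and 70.5 CPM in 1X PBS, 49.0, 41.8 and 41.0 with 1X cytokine, 43.2, 46.0 and 42.0 in 2X PBS, and 32.0, 41.4 and 39.9 in 2X cytokine. For both genes every library of 2X cytokine was below every library of 2X PBS in CPM. The nearest values were 6.78 and 7.84 CPM for Casp8 and 41.4 and 42.0 CPM for Cflar. In TPM the 2X groups overlapped for both genes. Casp8 had 4.88 to 10.9 TPM in 2X PBS and 2.89 to 5.30 TPM in 2X cytokine. Cflar had 35.9 to 41.5 TPM in 2X PBS and 36.5 to 41.5 TPM in 2X cytokine.

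In the 2X contrast, Casp8 differed by -0.99 ± 0.31 on the log2 scale in the edgeR fit of 6 libraries (adjusted p 0.0826) and by -0.98 ± 0.27 in the edgeR fit of 10 (adjusted p 0.0463), so it crossed the threshold in the latter fit and not in the former. Cflar differed by -0.20 ± 0.13 in the edgeR fit of 6 (adjusted p 0.423). The TPM ratio of Cflar to Casp8 was 3.82, 4.62 and 8.37 in 2X PBS and 6.88, 13.4 and 13.5 in 2X cytokine. These ratios overlapped, and the mean log2 ratio differed by 1.03 with an exact two-sided permutation p of 0.2, where 3 libraries against 3 cannot give less than 0.1. With protein-coding transcripts alone it was 1.08, 1.51 and 1.73 in 2X PBS and 1.71, 2.33 and 2.97 in 2X cytokine, a difference of 0.69 in mean log2 ratio (exact permutation p 0.2). In the 1X contrast the log2 ratio differed by -0.13 over all transcripts (exact permutation p 0.8) and by -0.23 over protein-coding ones (exact permutation p 0.9). The TPM ratio of Birc3 to Birc2 was 0.922, 1.07 and 1.27 in 2X PBS and 1.09, 0.667 and 0.513 in 2X cytokine, with an exact permutation p of 0.3. Counting protein-coding transcripts alone, it was 0.567, 0.614 and 0.633 against 0.363, 0.285 and 0.398 without overlap, at the smallest exact permutation p of 0.1. In the 1X contrast the log2 of that ratio differed by -0.90 over all transcripts (exact permutation p 0.6) and by -1.33 over protein-coding ones (exact permutation p 0.2). The 4 ratio tests of each contrast were not adjusted for their number.

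Fas encodes the death receptor CD95 (chr19:34290666-34327772, plus strand). Its CPM was 13.7, 42.1 and 28.3 in 1X PBS, 25.8, 11.5 and 14.8 with 1X cytokine, 34.3, 28.7 and 19.8 in 2X PBS, and 11.8, 15.4 and 14.1 in 2X cytokine. All libraries of 2X cytokine were below those of 2X PBS, and the 1X groups overlapped. In the edgeR fit of 6 libraries Fas fell by 0.98 ± 0.22 on the log2 scale between 2X PBS and 2X cytokine (adjusted p 0.0150). The range of that adjusted p over 20 alternatives ran from 0.0150 to 0.785. Transcripts of its ligand Fasl were at 0 in 11 of 12 libraries and at 1 count in the other.

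Ripk3, the kinase that triggers necroptosis, and Mlkl, the membrane-breaking protein it activates, were near the limit of detection (Ripk3 chr14:55784995-55788865, Mlkl chr8:111311797-111338177, both on the minus strand). Ripk3 had 3, 10 and 12 estimated counts in 1X PBS, 12, 2 and 1 with 1X cytokine, 4, 12 and 10 in 2X PBS, and 2, 0 and 1 in 2X cytokine. Mlkl had 5, 12 and 7 estimated counts in 1X PBS, 10, 2 and 1 with 1X cytokine, 6, 3 and 14 in 2X PBS, and 0, 1 and 2 in 2X cytokine. All 2X cytokine libraries were thus below 3 counts for both genes, so neither gene was distinguishable from 0 there. Neither passed the filter of the fits of 12 and 6 libraries. Mlkl passed the filter of the edgeR fit of 10 through the groups where it is higher, so it counts among the 9 genes tested there and no fold is given for it.

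Among the genes called in both contrasts with PBS, Birc3 and Fas had the same direction and Traf1 did not. In the edgeR fit of 10 libraries, which leaves 2 libraries in each 1X group, 23.5% of all genes were called in the 1X contrast, and Birc3, Fas (-1.41 ± 0.29), Traf1 (-0.83 ± 0.22) and Cflar (-0.78 ± 0.14) fell among 9 tested. In the 2X contrast, 7.02% of all genes were called there, Birc3, Casp8 and Fas fell, and Traf1 rose by 0.72 ± 0.17, again among 9 tested. In the PBS contrast, 18.6% of all genes were called, and Birc3 (-1.47 ± 0.14), Casp8 (-0.82 ± 0.25), Cflar (-0.70 ± 0.12), Traf1 (-0.66 ± 0.18) and Birc2 (-0.36 ± 0.12) fell. In the cytokine contrast, 0.0202% were called by edgeR and 0 of the 9 were, with 2 of the 9 (Casp8, Traf1) at an unadjusted p under 0.05, beside 9.57% of all genes. For the difference, 9.33% were called, Birc3 and Traf1 among them. The comparisons share control libraries, so their values are not independent of each other. Calls in this fit are descriptive, because the displaced libraries were picked by the same expression values. The 1X PBS libraries kept in it had astrocyte marker sums of 8962 and 8575 CPM, the lowest of all libraries. The 1X cytokine libraries kept had 23134 and 26216 CPM, and the part of this difference in the calls was not tested. In the edgeR fits of 6 libraries for the 1X, cytokine and PBS contrasts, 0%, 0% and 0% of all genes were called and 0 of the 8, with 1, 2 and 1 of the 8 at an unadjusted p under 0.05, beside 1.77%, 7.24% and 5.59% of all genes.

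**Figure D2:**
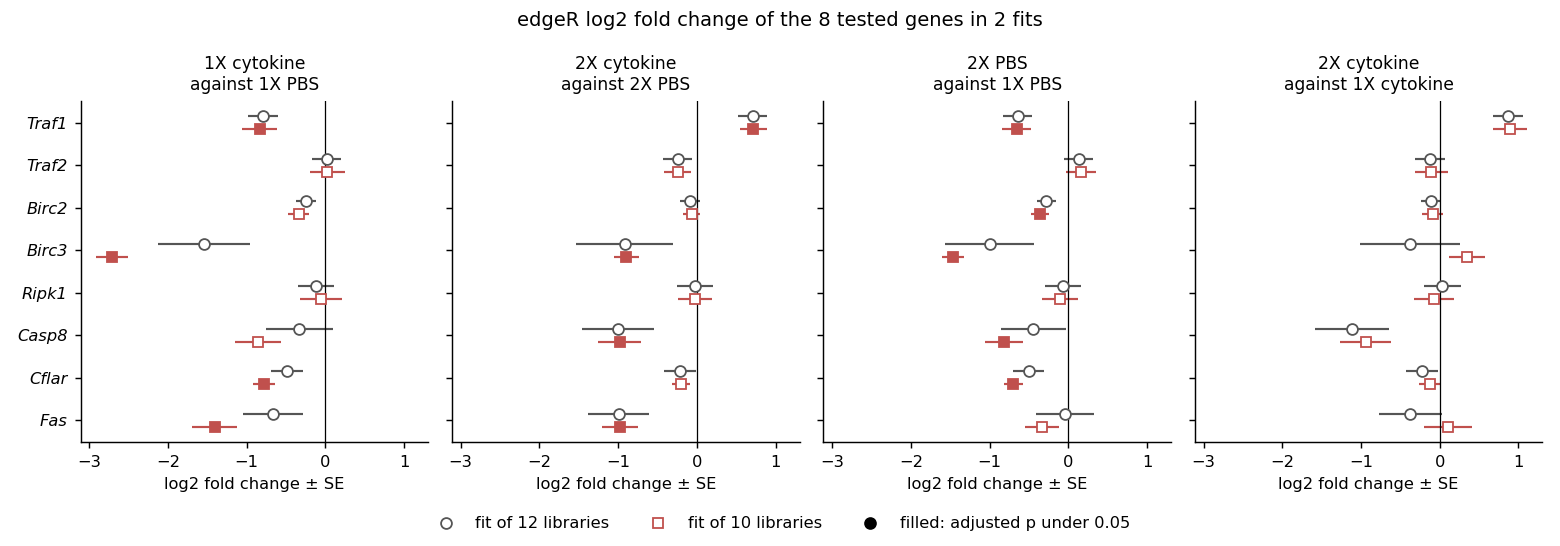
Log2 fold change ± SE (horizontal axis) of the 8 genes in the edgeR fit of 12 libraries (circles) and of the 10 left without the displaced libraries (squares), filled where the adjusted p was under 0.05. The Traf1 values change sign between the first and second panels, at -0.80 and 0.71 in the fit of 12.

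Some markers of myeloid cells, microglia included, were lower in 2X cytokine than in 2X PBS, as were Birc3, Casp8, Cflar and Fas. In the edgeR fit of the 6 2X libraries, where 7.74% of all genes were called, 4 of the 7 tested monocyte and macrophage markers fell in 2X cytokine, as did 4 of 7 neutrophil markers and 6 of 14 microglia markers. The 1X library low in Birc3 under PBS had a monocyte and macrophage sum of 34.0 CPM. The 1X library high in Birc3 under cytokine had one of 347 CPM, against 32.3 and 33.0 CPM in replicates 2 and 3. In those replicates of 1X cytokine, Fas had 11.5 and 14.8 CPM, Casp8 10.0 and 10.3 CPM and Cflar 41.8 and 41.0 CPM. In 2X PBS, with sums between 383 and 397 CPM, Casp8 had 7.84 to 13.1 CPM and Cflar 42.0 to 46.0 CPM. Neutrophil markers summed to 32.0, 1063 and 1289 CPM in 1X PBS, 508, 21.8 and 27.1 with 1X cytokine, 352, 299 and 270 in 2X PBS, and 167, 43.9 and 13.6 in 2X cytokine. In bulk RNA, fewer cells of a type and less RNA per cell cannot be told apart, and the part of these cells in the values of the 4 genes was not tested. Traf1 stood at 58.2 CPM in the 1X PBS library with a monocyte and macrophage sum of 34.0 CPM. It was at 73.4 and 56.4 CPM in those with sums of 1542 and 1388 CPM. In 1X cytokine Traf1 was at 35.9, 28.0 and 45.1 CPM beside sums of 347, 32.3 and 33.0 CPM. In the 2X groups it was the other way round from Birc3: Traf1 was between 31.4 and 46.1 CPM where those sums were between 383 and 397 CPM, and between 64.1 and 66.6 CPM where they were between 12.1 and 86.0 CPM. The part of myeloid cells in the Traf1 values was not tested. The choroid plexus sums overlapped between the 2X groups, all 5 markers had negative fitted changes in the edgeR fit of 6 at a median of -0.75, and 0 of the 5 were called. Oligodendrocyte markers rose in the 2X contrast, as Traf1 did, 7 of 10 in the edgeR fit of 6. Their sums were 4415, 3451 and 3036 CPM in 2X PBS and 6235, 6900 and 5737 CPM in 2X cytokine. In the 1X groups those sums were 6548, 6595 and 5480 CPM under PBS and 6307, 6902 and 4090 CPM under cytokine. Both those sums and Traf1 were lower in 2X PBS than in 1X PBS without overlap in CPM. In the 1X and the cytokine contrasts those sums overlapped and Traf1 did not. Sums of the ependymal markers were 425, 479 and 356 CPM in 2X PBS and 477, 582 and 595 CPM in 2X cytokine. In the 1X groups they were 326, 672 and 540 CPM under PBS and 536, 301 and 393 CPM under cytokine. The part of oligodendrocyte and of ependymal RNA in the Traf1 values was not tested.

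**Figure D3:**
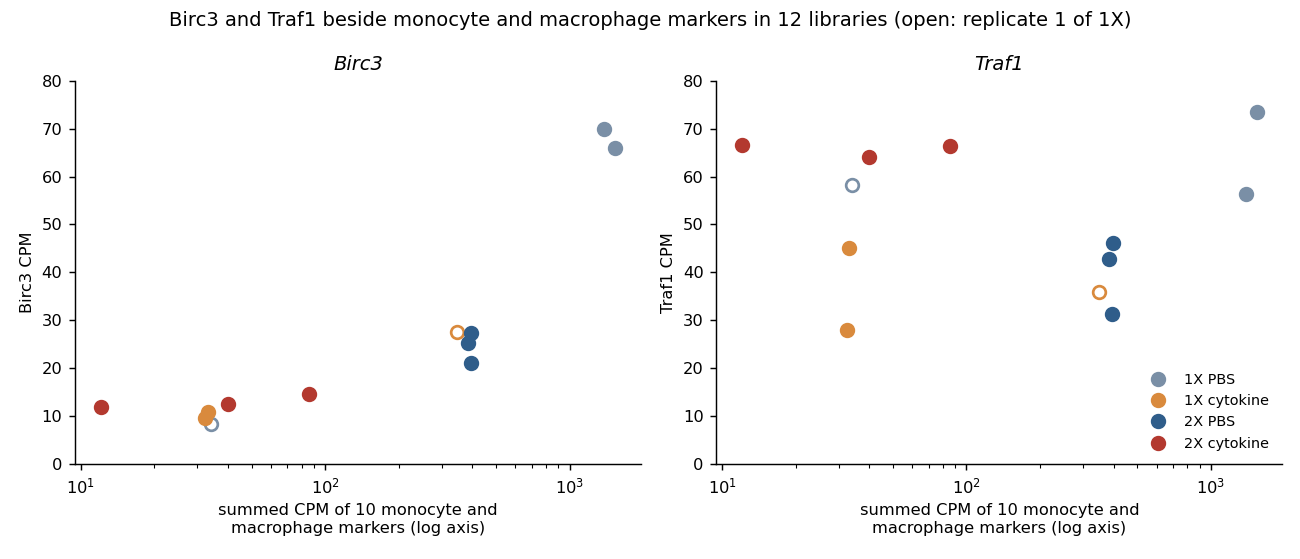
CPM of Birc3 (left) and Traf1 (right) against the summed CPM of 10 monocyte and macrophage markers (log axis) in the 12 libraries, with open circles for the displaced libraries. Birc3 is highest in the 2 libraries with sums of 1542 and 1388 CPM. Traf1 is 73.4 and 56.4 CPM there, and ranges from 28.0 to 66.6 CPM where the sums are 86.0 CPM or less.

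Across the 12 libraries, the profiles of Birc3, Cflar, Fas, Casp8 and Birc2 were alike, and those of Traf1, Ripk1 and Traf2 stood apart. Pearson's r of log2(CPM + 0.5) among the alike genes ran from 0.63 (Birc2 and Fas) to 0.85 (Birc3 and Cflar). With those genes, r was between 0.04 and 0.36 for Ripk1 and between -0.02 and 0.27 for Traf2. Traf1 had r between -0.22 and 0.19 with each of the other 7 tested genes. The protein-coding genes most like Birc3 were Rnf149 (r 0.98), Cdk2ap2 (0.97) and Itgb2 (0.97), the last encoding a leukocyte integrin chain. Those most like Casp8 were Dnase1l1, Emb and Entpd3 (r 0.93 to 0.95), those most like Cflar were Eif4ebp1, Kif5b and Ppfia4 (0.94 to 0.96), and those most like Fas were G0s2, Clic1 and Hyou1 (0.93 to 0.95). For Traf1 they were Ttc34 (r 0.89), Dzank1 (0.88) and Smyd3 (0.85). For Birc2 they were Mbnl1, Tmod3 and Rftn1 (0.91 to 0.94), for Traf2 B3gat3, Eif2b4 and Eda (0.85 to 0.87), and for Ripk1 Srgap2, Med13l and Brd9 (0.80 to 0.82). These are descriptions over 12 libraries that share the split along the first principal component.

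Other genes of the pathway were read from 6 lists in the edgeR fit of the 6 2X libraries, in which 7.74% of all genes were called in either direction and the median log2 fold change over all genes tested was 0.01. Of 24 genes of the TNF receptors and their complex, 4 fell and 0 rose, with a median of -0.10. These were both receptors, Tnfrsf1a (-1.18 ± 0.12) and Tnfrsf1b (-2.66 ± 0.21), the cytokine gene Tnf (-1.15 ± 0.22) and the kinase gene Mapkapk2 (-0.67 ± 0.17). Tnfrsf1a had 176, 138 and 148 CPM in 2X PBS and 73.2, 71.2 and 57.3 CPM in 2X cytokine. Of 13 caspase and apoptosome genes edgeR called 0, at a median of -0.07, and 0 had an unadjusted p under 0.05. The smallest p was that of Dffa, which encodes the inhibitor of the caspase-activated DNase (0.45 ± 0.24, edgeR adjusted p 0.337).

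In the BCL2 family, read against the same 7.74%, 11 of 17 genes were tested and their median was -0.25: the survival gene Bcl2a1b fell (-1.52 ± 0.37) and the pro-apoptotic Bok rose (0.49 ± 0.10), while Pmaip1, which encodes NOXA, differed by -2.08 ± 0.63 at an edgeR adjusted p of 0.0701. Among 12 of 14 tested genes of necroptosis and pyroptosis, 4 fell and 1 rose, with a median of -0.27. The genes that fell belong to the inflammasome arm: Il1b (-4.58 ± 0.30), Casp4 (-1.78 ± 0.40), Nlrp3 (-1.63 ± 0.29) and Pycard (-1.07 ± 0.23). Il1b had 195, 141 and 142 CPM in 2X PBS and 8.93, 9.80 and 1.80 CPM in 2X cytokine. The gene that rose, Gsdme, encodes a pore-forming gasdermin (0.51 ± 0.12) and is named here because it was the only one, after its value was seen.

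Among other death receptors, ligands and decoys, again beside 7.74% of all genes, 10 of 14 genes were tested with a median of -0.39, the receptors Tnfrsf12a (-1.17 ± 0.17) and Ltbr (-0.53 ± 0.14) fell, and Faim2, an inhibitor of Fas-induced death, rose (0.69 ± 0.17). Of 14 NF-κB feedback and target genes, all tested with a median of -0.43, 5 fell and 1 rose. They included the subunit gene Nfkb2 (-0.90 ± 0.13) and the adhesion genes Icam1 (-0.94 ± 0.18) and Vcam1 (-0.51 ± 0.09), while Nfkbiz, which encodes a nuclear IκB protein, rose (0.85 ± 0.14). None of the 6 lists held a called gene in the edgeR fit of 12. In the fit of 10, Gsdme and Faim2 were no longer called, and Bok, Nfkbiz and the genes named here as falling were. Pmaip1 (-2.08 ± 0.56, edgeR adjusted p 0.0406) and the TNF-induced gene Tnfaip2 (-1.01 ± 0.28, edgeR adjusted p 0.0459) fell there in addition, beside 7.02% of all genes. Zbp1, a sensor of necroptosis, was tested in the fit of 10 and not in the fit of 6, so no fold is given for it. Tnfaip2 and Zbp1 are named after their values were seen. The monocyte, neutrophil and microglia markers named above fell in the same fit, and Il1b, Nlrp3, Tnfrsf1b, Bcl2a1b and Pycard are also expressed by those cells, whose part was not tested.

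**Figure D4:**
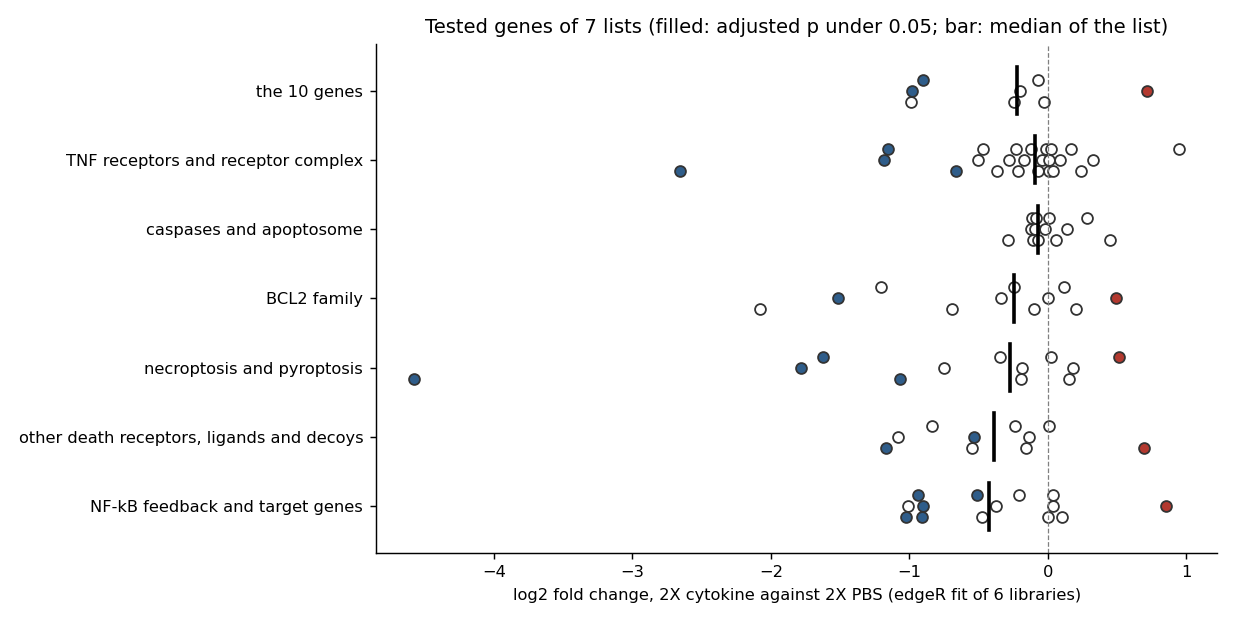
Log2 fold change of each tested gene (circles, horizontal axis) in the edgeR fit of the 6 2X libraries for the 10 genes and 6 pathway lists, filled where the adjusted p was under 0.05 (blue lower, red higher), with a bar at each list's median. The medians lie between -0.43 and -0.07, and the gene farthest from 0 is Il1b at -4.58.

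In the 1X contrast of the edgeR fit of 12, the smallest unadjusted p-values were those of Nfkbie (-1.61 ± 0.41), Ppm1b (0.84 ± 0.23), Rel (-1.73 ± 0.51) and Bcl2l11 (-1.52 ± 0.47), each at an edgeR adjusted p of 0.866. The NF-κB feedback and target list had a median of -0.67 there, beside -0.01 over all genes, and 13 of its 14 genes were lower in 1X cytokine. In the edgeR fit of 10 libraries 11 of the 14 fell and 1 rose, against 23.5% of all genes called in either direction. The monocyte and macrophage sums of the 1X libraries were 34.0, 1542 and 1388 CPM under PBS and 347, 32.3 and 33.0 CPM under cytokine, the neutrophil sums given above split in the same way, and their part in the values of this list was not tested. The inhibitory Tnfaip3, which encodes the ubiquitin editor A20, had 16.0, 286 and 246 CPM in 1X PBS, 65.4, 55.7 and 30.2 with 1X cytokine, 52.9, 57.0 and 61.6 in 2X PBS, and 59.3, 75.0 and 39.3 in 2X cytokine, so its high values were confined to the 2 libraries of 1X PBS that were also high in Birc3 and in both myeloid sums, whose part was not tested.

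The files give values per transcript, and they show how far these genes were measured as protein-coding RNA. Transcripts annotated as not protein-coding took 34.4% of the counts of Traf1 (19.7 to 49.6% by library), 30.6% of those of Fas (0 to 97.0%) and 25.9% of those of Cflar (18.3 to 42.0%). The same share was 8.96% for Birc3 and 2.91% for Birc2. On the TPM scale, where short transcripts weigh more, the share was 72.7% for Cflar (64.5 to 82.6% by library), 54.1% for Birc3 (25.7 to 69.0%), 41.6% for Traf1 (27.4 to 62.2%), 32.5% for Fas (0 to 93.6%) and 10.0% for Birc2 (2.01 to 31.3%). The leading transcript of Birc3, a protein-coding one, took 75.7% of its counts, between 46.6 and 88.3% in each library, and 37.1% of its TPM. That of Traf1 took 36.5% of counts and 32.5% of TPM, with 4.04 to 70.7% of counts by library. That of Birc2 took 52.4% of counts and 43.4% of TPM, with 0.000939 to 99.2% of counts by library. Differences between groups in these shares were not tested. Casp8, Ripk1, Mlkl, Traf2 and Fas overlap other annotated genes, and no source used here states whether counting used strand, so a part of their counts may come from those genes.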

How the data were processed

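RNA-seq gave 12 libraries; 19 ATAC-seq samples are not analysed here. Per the labels' protocols, SMART-Seq2 libraries were quantified by the authors against the GRCm38 mouse transcriptome with kallisto 0.46.1. The deposited files hold, for 142604 transcripts, an estimated count and a TPM (a length-adjusted share of the library, from the authors' kallisto run). Estimated counts were summed per gene and rounded, and TPM was summed per gene. Positions come from GENCODE M21, matched by versioned identifier for 98.1% of genes, and start-site windows from RefSeq on GRCm38.p6, matched by symbol for all 10 genes.

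Tests used edgeR 4.0.16 (R 4.3.3; filterByExpr over the 4 groups, TMM, quasi-likelihood F test, 1 coefficient per group, Benjamini-Hochberg over all genes, threshold 0.05). SE is the absolute log2 fold change over the square root of the F statistic. Replicate animals are not stated, so p-values reflect spread among libraries that may be technical. Counting limits cover counting error only. The procedure was tested on simulated data. Alternatives were DESeq2 1.42.0, RLE scaling, only the 6 libraries of a contrast, dropping the low-count filter (1 count in all kept), limma-trend (limma 3.58.1) on log2 TPM with a pseudocount of 1 or 0.1 where mean TPM reached 1, the replicate block, and leaving out each library, or both displaced libraries (replicate 1 of each 1X group).

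The 10 genes, the pathway and marker lists and the displaced libraries were chosen with earlier results of these data known. Named are all 10 genes; of each pathway list the genes past the threshold in the fit of 12, up to 4 with the smallest p in the 2X contrast of the fit of 6 and up to 2 in the 1X contrast of the fit of 12; and the 3 protein-coding genes with a mean CPM of at least 5 most correlated with each of the 8 genes, clone names left out. The text leaves some of them out. In addition, 2 genes were left out of these lists and are not reported here.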

Additional observations from a re-analysis of the deposited data

Results flagged for a closer look

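Traf1 was the only 1 of the 8 tested genes whose cytokine response differed between 1 and 2 injections without overlap of libraries in CPM. Every library of 1X cytokine lay below every library of 1X PBS, and every library of 2X cytokine lay above every library of 2X PBS. In TPM the same held, with nearest values of 33.6 and 34.6 TPM in the 1X contrast and 45.4 and 45.3 TPM in the 2X contrast. The 2X response minus the 1X response was 1.51 on the log2 scale. DESeq2 gave this difference an adjusted p of 0.00218 and edgeR one of 0.204 in the fit of 12 libraries. Among all 14490 tested genes, 75 (0.518%) had libraries that overlapped in neither contrast and lay in opposite directions, and 25 (0.173%) did so in the direction of Traf1. The share without overlap was 6.22% in the 1X contrast and 25.3% in the 2X contrast. With the labels of the displaced libraries exchanged, Traf1 would overlap between the 1X groups, at 35.9, 73.4 and 56.4 CPM in 1X PBS and 58.2, 28.0 and 45.1 CPM in 1X cytokine. No fit was made with exchanged labels.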

How the results depend on the processing

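The counts of called genes were 0 in each comparison in the edgeR fit of 12 libraries, and DESeq2, RLE scaling, both limma-trend fits and the replicate block gave 0 as well, except that DESeq2 called 1 (Traf1) for the difference between the responses. With no low-count filter the counts were 2, 1, 1, 0 and 1 in the 1X, 2X, cytokine and PBS contrasts and for the difference, beside 0.748%, 1.37%, 0.575%, 0.289% and 0.208% of all genes. Without both displaced libraries they were 4, 4, 0, 5 and 2, beside 23.5%, 7.02%, 0.0202%, 18.6% and 9.33% of all genes. With only the 6 libraries of a comparison they were 3 in the 2X contrast, beside 7.74% of all genes, and 0 in the other 3 contrasts, beside 0% in each. Leaving out 1 library gave 0 to 3 in the 1X contrast and 0 to 2 in the PBS contrast, with the higher counts only without 1X PBS replicate 1 (Birc3, Cflar and Traf1; Birc3 and Cflar; 7.55% and 7.39% of all genes), and 0 for the rest. Deviations from the group mean of same-numbered libraries had r of -0.62, -0.30 and -0.39 in the 1X groups and -0.07 to -0.01 in the 2X groups. Both displaced libraries are replicate 1, with scores of -41.2 and 39.8 on the first principal component. The values of the 1X groups include that split, so they cannot show whether libraries were paired. The replicate block gave 0 calls throughout.

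Of 792 log2 fold changes of the genes under alternatives, 727 kept direction and side of the threshold, 29 passed it anew and 36 changed sign; the causes were not tested. In the cytokine contrast, the sign changed for Cflar with limma-trend (0.027 and 0.028) and, without both displaced libraries, for Birc3 (0.35), Fas (0.10) and Ripk1 (-0.071). In the PBS contrast it changed with limma-trend at pseudocounts 1 and 0.1 for Ripk1 (0.14 and 0.16) and Fas (0.34 and 0.35), and for the difference it changed for Fas without both displaced libraries (0.43). Of 720 such values of pathway genes 652 kept direction and side of the threshold, 68 passed it anew and 0 changed sign. Limma-trend on TPM moved the median of all genes to 0.122 and 0.136 in the 1X contrast and to 0.153 and 0.175 in the PBS contrast, from -0.011 and -0.029, so its Fas and Ripk1 values there are to be read against that shift.

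Leaving out 1 library, values spanned 0 as follows. 1X contrast: Casp8 -0.69 to 0.0096 (reversed without 1X PBS replicate 3), Ripk1 -0.32 to 0.017 and Traf2 -0.085 to 0.17. 2X contrast: Ripk1 -0.18 to 0.15 and Birc2 -0.12 to 0.0064. Cytokine contrast: Ripk1 -0.14 to 0.27, Traf2 -0.30 to 0.021, Birc3 -0.64 to 0.35 and Fas -0.59 to 0.092 (the last 2 reversed without 1X cytokine replicate 1). PBS contrast: Ripk1 -0.20 to 0.061 and Fas -0.33 to 0.37. Difference: Ripk1 -0.091 to 0.31 and Fas -0.72 to 0.12. Counting protein-coding transcripts alone kept the direction of both TPM ratios in both comparisons. The share on the leading transcript moved from counts to TPM for Ripk1 (57.7 to 24.0%), Ripk3 (51.5 to 13.8%), Cflar (53.7 to 12.7%) and Birc3 (75.7 to 37.1%). Depth limits Ripk3 and Mlkl, which stood at 14 counts or fewer in every library.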
